A study of Mus musculus with 2 samples.

Results

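The genes described are 10 markers and machinery of the cell division cycle: Mki67, Top2a, Ccnb1, Ccna2, Cdk1, Mcm2, Mcm5, Rrm2, Pcna and Cdkn1a. They were chosen by symbol, and all 10 of them had a row among the 55536 genes of both libraries. The tissue was gastrocnemius, a muscle of the calf, taken from female B6CASTF1/J hybrid mice aged 36 days. Total RNA from it, 300 ng with ERCC spike-in RNAs added, was made into 2 libraries of 1 group, replicate 2 and replicate 1. The labels name no treatment, and no second genotype, tissue or age is compared. The labels number the tissue samples separately and do not say whether these are different animals, so differences between libraries may be partly technical. With 1 library on each side there was no test. Differences are ratios of replicate 2 over replicate 1, with exact 95% counting intervals that cover counting error only.

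A dividing cell duplicates its DNA in S phase and separates the copies in mitosis. Before S phase, a ring of MCM proteins is loaded onto DNA as the replicative helicase. Ribonucleotide reductase then supplies deoxynucleotides, and the PCNA clamp holds the polymerases on their template. Entry into mitosis is driven by the kinase CDK1 with cyclin A and then cyclin B, while topoisomerase II-alpha untangles the duplicated chromosomes. CDKN1A, also called p21, inhibits cyclin-dependent kinases and is a classical target of the transcription factor p53. Muscle fibres are formed of fused cells that have left the cycle, and in young muscle the cells that can still divide include satellite cells, the muscle stem cells, and cells of vessels, connective tissue and blood. In quiescent cells the DREAM complex holds many of these genes silent through E2F sites and cell cycle homology regions (CHR), and the CCAAT box bound by NF-Y often lies beside the CHR of mitotic genes.

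Promoter windows are printed for the 4 of the 5 members over 2-fold apart between the libraries that have one. Those of Mcm2, Mcm5 and the upstream Cdkn1a start are printed too. The windows of Ccnb1, Pcna and the downstream Cdkn1a start were searched but are not printed. RefSeq windows of build GRCm38.p6 (mm10) were matched for 9 of the 10 members, with 10 windows in all because Cdkn1a has a pair of starts, and Ccna2 had none. The 250 bases before each start were searched on both strands for the CCAAT box (CCAAT), the CHR (TTTGAA or TTTAAA) and an E2F word (TTCCCGC or TTGGCGC). Each line runs 5′ to 3′ along the gene and ends at the base before its start. Capitals mark the words, including those on the opposite strand, and in Cdkn1a a p53 response element.
Mki67: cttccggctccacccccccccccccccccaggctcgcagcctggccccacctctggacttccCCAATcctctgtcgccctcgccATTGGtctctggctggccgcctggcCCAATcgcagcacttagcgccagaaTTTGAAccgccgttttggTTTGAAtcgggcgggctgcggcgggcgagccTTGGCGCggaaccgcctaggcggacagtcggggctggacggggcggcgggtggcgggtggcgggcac
Top2a: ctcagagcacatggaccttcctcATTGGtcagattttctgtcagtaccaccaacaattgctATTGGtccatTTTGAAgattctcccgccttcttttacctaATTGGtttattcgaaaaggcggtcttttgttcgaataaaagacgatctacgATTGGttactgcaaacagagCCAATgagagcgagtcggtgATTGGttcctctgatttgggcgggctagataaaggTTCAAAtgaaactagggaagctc
Cdk1: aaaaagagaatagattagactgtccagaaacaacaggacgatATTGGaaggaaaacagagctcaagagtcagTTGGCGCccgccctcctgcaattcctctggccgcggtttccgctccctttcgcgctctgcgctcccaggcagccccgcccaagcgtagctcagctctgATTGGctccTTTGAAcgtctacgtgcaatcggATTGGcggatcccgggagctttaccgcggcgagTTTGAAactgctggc
Rrm2: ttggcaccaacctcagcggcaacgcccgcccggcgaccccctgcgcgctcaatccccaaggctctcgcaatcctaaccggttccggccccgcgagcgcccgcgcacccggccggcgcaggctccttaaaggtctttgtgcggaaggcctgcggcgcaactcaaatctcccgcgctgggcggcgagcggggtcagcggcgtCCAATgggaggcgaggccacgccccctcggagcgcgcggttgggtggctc
Mcm2: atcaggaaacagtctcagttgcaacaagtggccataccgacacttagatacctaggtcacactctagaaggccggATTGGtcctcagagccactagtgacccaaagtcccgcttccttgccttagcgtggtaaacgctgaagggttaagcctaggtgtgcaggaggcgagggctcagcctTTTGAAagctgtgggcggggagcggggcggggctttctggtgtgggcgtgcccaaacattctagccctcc
Mcm5: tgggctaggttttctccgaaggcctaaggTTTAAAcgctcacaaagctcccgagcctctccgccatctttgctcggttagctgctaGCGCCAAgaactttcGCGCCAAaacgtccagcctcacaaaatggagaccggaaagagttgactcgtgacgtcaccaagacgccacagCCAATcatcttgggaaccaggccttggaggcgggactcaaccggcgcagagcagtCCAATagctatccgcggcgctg
Cdkn1a upstream start: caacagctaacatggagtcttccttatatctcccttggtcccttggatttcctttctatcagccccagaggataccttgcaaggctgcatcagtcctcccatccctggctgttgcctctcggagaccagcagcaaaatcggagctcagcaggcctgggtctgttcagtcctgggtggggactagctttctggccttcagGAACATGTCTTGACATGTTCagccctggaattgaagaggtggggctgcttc
The windows are at chr7:135716380-135716629 (minus strand) for Mki67, chr11:99024190-99024439 (minus) for Top2a, chr10:69352913-69353162 (minus) for Cdk1 and chr12:24708004-24708253 (plus) for Rrm2. Those of Mcm2, Mcm5 and the upstream Cdkn1a start are at chr6:88898781-88899030 (minus), chr8:75109259-75109508 (plus) and chr17:29090729-29090978 (plus).

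A CCAAT box was present in 8 of the 10 windows, against 33.8% of all 32851 RefSeq promoter windows. A CHR was present in 6 windows, against 25.2% of all windows, and an E2F word in 4, against 5.62%. All 6 windows with a CHR also held a CCAAT box, a combination found in 8.78% of all windows. Top2a had the most words, with 6 CCAAT boxes and 2 CHR words. Mki67 and Cdk1 each had 3 CCAAT boxes, 2 CHR words and 1 E2F word. Mcm5 had 2 E2F words, 2 CCAAT boxes and 1 CHR, and Mcm2 had 1 CCAAT box and 1 CHR. Ccnb1 had 2 CCAAT boxes, 1 CHR and 1 E2F word, and the E2F word overlapped a CCAAT box. Rrm2 and Pcna had 1 CCAAT box each and neither of the other words. Neither Cdkn1a window held any of these 3 words, but the upstream one held a p53 response element with 1 mismatch and both cores intact, at chr17:29090928-29090947. Such an element was found in 15 of all 32851 windows, or 0.0457%. The element was searched after the windows had been read, so this share is a description and not an independent background. A word is a description of letters, not evidence of binding. Any link of the words to the ratios between libraries was not tested. Of the members over 2-fold higher in replicate 2, Mki67, Top2a and Cdk1 held a CHR and Rrm2 did not. Of those within 2-fold, Ccnb1, Mcm2 and Mcm5 held a CHR, and Pcna and Cdkn1a did not.

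**Figure D1:**
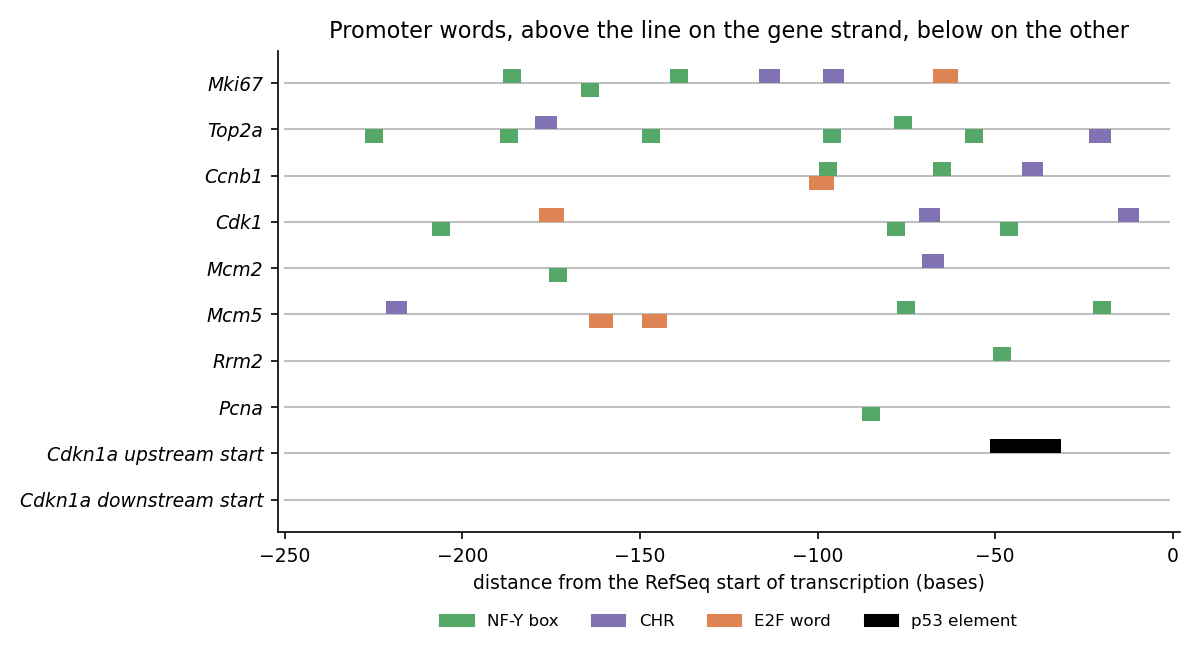
Positions of the searched words in the 250 bases before each RefSeq start, with distance from the start in bases on the horizontal axis and 1 row for each window. Blocks above a line are on the strand of the gene and blocks below it on the opposite strand; the NF-Y box is the CCAAT box, which is absent only from the pair of Cdkn1a rows at the bottom.

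The gene tables held 40656175 expected counts in replicate 2 and 37735687 in replicate 1. The tissue label was checked against fast muscle genes: 8 of 8 were detected in both libraries, and Acta1, skeletal muscle actin, stood at 21414 TPM in replicate 2 and 26410 in replicate 1. None of the 8 was past 2-fold, with a median log2 ratio of -0.39. Scaling by the spike-in RNAs instead moved that median to 0.004 and the median of all genes to 0.39. The libraries differed in other tissue components. All 7 slow fibre genes were over 2-fold higher in replicate 2, where 4.63% of all genes at a mean count of 10 or more were. The 7 slow fibre genes summed to 2612 TPM in replicate 2 and 15.1 in replicate 1. The gap was narrower in the reads-based table, where their counts summed to 140876.7 in replicate 2 and 7124 in replicate 1, against 133337.6 in replicate 2 and 1644.1 in replicate 1 by alignment. Their median log2 ratio was 8.20 by reads and 9.80 by alignment. The 7 fat cell genes summed to 25.9 TPM in replicate 2 and 244 in replicate 1. All 7 were over 2-fold lower in replicate 2, where 3.09% of all genes at a mean count of 10 or more were. These differences run alongside every ratio below, and their part in it was not tested. In bulk tissue, fewer cells of a type and less RNA per cell cannot be told apart.

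The levels of the cell cycle genes spread widely, from 0.15 TPM for Ccna2 to 20.3 TPM for Cdkn1a, both in replicate 1. Cdkn1a, Pcna and Mcm2 reached a TPM (transcripts scaled by length and library) of 1 in both libraries, 3 of the 10 members, where 19.5% of all 55536 genes and 45.2% of 22028 protein-coding genes did. A further 3 members, Top2a, Rrm2 and Mki67, reached 1 TPM in replicate 2 only, where 1.54% of protein-coding genes did so, and no member in replicate 1 only, where 1.34% did. Ccnb1, Ccna2, Cdk1 and Mcm5 were below 1 TPM in both. By mean TPM the order was Cdkn1a, Pcna, Mcm2, Top2a, Rrm2, Mki67, Mcm5, Cdk1, Ccna2 and Ccnb1. For the first 3, the lower of both library values exceeded the higher value of the next gene. From Top2a downwards the values of each pair of neighbours overlapped, although within each library Rrm2 was above Mki67 and Mcm5 above Cdk1. Pcna averaged 7.87 ± 0.332 TPM, Top2a 1.00 ± 1.05, Rrm2 0.86 ± 0.467, Cdk1 0.415 ± 0.304, Ccna2 0.40 ± 0.354 and Ccnb1 0.24 ± 0.0283 TPM (SD, n = 2). In the reads-based table Pcna, at 17.5 TPM, stood above Cdkn1a, at 14.1 TPM, in replicate 2, while in replicate 1 Pcna had 16.8 TPM and Cdkn1a 27.8 TPM.

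**Figure D2:**
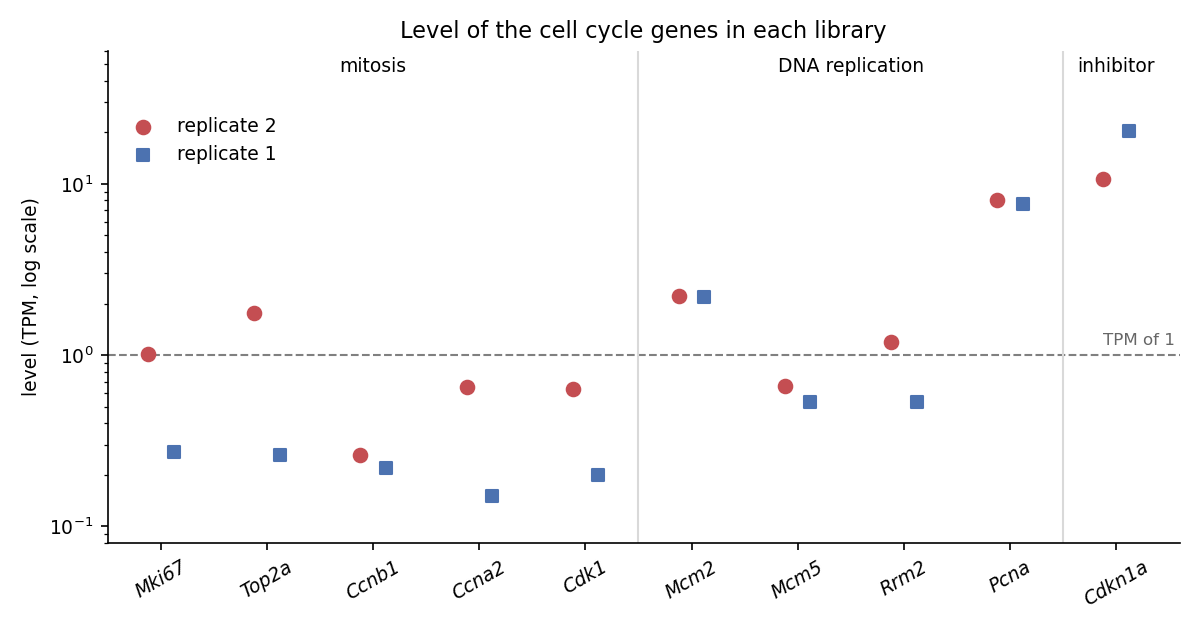
Level of each gene in TPM on a log scale, with circles for replicate 2 and squares for replicate 1; the dashed line is at a TPM of 1. The circles of Mki67, Top2a, Ccna2 and Cdk1 lie well above their squares, those of Mcm2 and Pcna coincide closely with theirs, and that of Cdkn1a lies below its square.

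Top2a, Mki67 and Ccna2, all genes of mitosis, had the largest ratios of the 10 genes. Of the 5 mitotic members, 4 were over 2-fold higher in replicate 2 and none was over 2-fold lower, with a median log2 ratio of 1.92. Over all 10 members, 5 were over 2-fold higher in replicate 2 and none over 2-fold lower, and the median log2 ratio was 0.93. Among all 15007 genes at a mean count of 10 or more, 4.63% were over 2-fold higher in replicate 2 and 3.09% over 2-fold lower, and the median log2 ratio was -0.002. Low counts vary more. Among 5011 genes whose mean count was 10 to 100, 9.7% were over 2-fold higher and 6.84% over 2-fold lower in replicate 2. Among 6797 genes at 100 to 1000 counts, 2% were over 2-fold higher and 1.34% over 2-fold lower. Thymocyte markers, given in full further on, were also higher in replicate 2, as were the slow fibre genes above. The 15 thymocyte markers summed to 15.7 TPM in replicate 2, against 0.54 TPM in replicate 1. The part of either list in the result was not tested.

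Mki67 encodes Ki-67, the nuclear protein that coats mitotic chromosomes and serves as the standard marker of cycling cells (ENSMUSG00000031004.8, chr7:135689784-135716361, minus strand). It had 325 counts and 1.01 TPM in replicate 2, against 81 counts and 0.27 TPM in replicate 1. The level in replicate 2 was 3.83-fold higher (2.99 to 4.94), and the mean of both was 0.64 ± 0.523 TPM (SD, n = 2). The SD was close in size to the mean because the libraries lay far apart. Mki67 is a long gene with a long transcript, and its counts exceeded those of Top2a while its gene TPM in replicate 2 did not. Between the coding transcripts alone, Mki67-201 stood at 1.01 TPM and Top2a-201 at 0.93 TPM in replicate 2. All of its counts fell on Mki67-201 in both the alignment-based and the reads-based table, and the reads-based counts were 374 in replicate 2 and 94 in replicate 1.

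Top2a encodes topoisomerase II-alpha, which passes one DNA duplex through another and peaks in G2 and mitosis (ENSMUSG00000020914.17, chr11:98992943-99024189, minus). It had 174 counts and 1.75 TPM in replicate 2, against 31 counts and 0.26 TPM in replicate 1. At 5.35-fold higher in replicate 2 (3.64 to 8.12), it had the largest ratio of the 10 genes under all 8 settings of scaling and quantification tried. The full-length coding transcript Top2a-201 held 152.94 counts in replicate 2 and 29.85 in replicate 1, but only 52.8% of the TPM of the gene in replicate 2 and 73.1% in replicate 1. Short processed transcripts held the rest, and in replicate 2 Top2a-207 alone, with 9.26 counts, was given 23.3% of the TPM. Its TPM therefore overstates the level of the coding transcript, which was 0.93 TPM in replicate 2 and 0.19 in replicate 1.

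Ccna2 encodes cyclin A2, the partner of CDK2 in S phase and of CDK1 at mitotic entry (ENSMUSG00000027715.9, chr3:36564865-36572150, minus). It had 45 counts and 0.65 TPM in replicate 2, against 11 counts and 0.15 TPM in replicate 1, and was 3.90-fold higher in replicate 2 (1.99 to 8.36). The coding transcript Ccna2-201 held 30.25 counts in replicate 2 and 8.05 in replicate 1. Ccna2-203, annotated as a target of nonsense-mediated decay, held 12.81 counts in replicate 2 and 2.95 in replicate 1. The end of Ccna2 overlaps Exosc9, a subunit gene of the RNA exosome on the opposite strand, which had 238 counts in replicate 2 and 271 in replicate 1. No label states whether strand was used in the quantification, so reads in the overlap are uncertain.

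Cdk1, the kinase that drives entry into mitosis, and Ccnb1, which encodes its partner cyclin B1, were among the lowest of the genes. Cdk1 (ENSMUSG00000019942.13, chr10:69335146-69352938, minus) had 18 counts and 0.63 TPM in replicate 2, against 8 counts and 0.20 TPM in replicate 1. Its ratio of 2.15 had an interval of 0.888 to 5.70, which includes no difference, and in the reads-based table its log2 ratio was 0.81, under 2-fold. Ccnb1 (ENSMUSG00000041431.16, chr13:100778650-100786570, minus) had 15.3 counts and 0.26 TPM in replicate 2, against 8 counts and 0.22 TPM in replicate 1. Its ratio of 1.82 had an interval of 0.712 to 4.87, so a difference in cyclin B1 was not detectable at this depth. The transcripts of Ccnb1 were not settled either: Ccnb1-202 held 14.29 counts in replicate 2 and 3.82 in replicate 1 by alignment, and 0 in both in the reads-based table. Its processed pseudogene Ccnb1-ps was listed at 0 in both libraries.

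**Figure D3:**
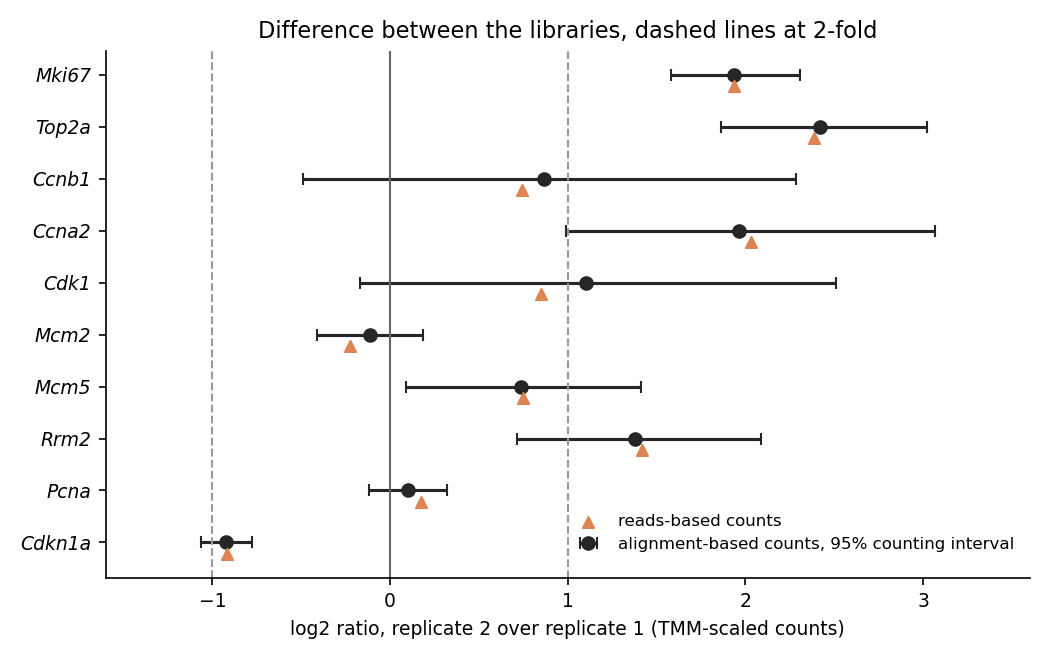
Log2 ratio of replicate 2 over replicate 1 for each gene, from TMM-scaled counts with no prior count. Dots and bars are alignment-based counts with exact 95% counting intervals, triangles are reads-based counts, and dashed lines mark 2-fold; the intervals of Mki67 and Top2a lie wholly above 2-fold, while those of Ccnb1, Cdk1, Mcm2 and Pcna cross 0.

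By their median, the genes of DNA replication differed less, and not all in the same way. Of the 4 replication members, 1 was over 2-fold higher in replicate 2 and 3 were within 2-fold, with a median log2 ratio of 0.41. Of all genes, 4.63% were over 2-fold higher. Rrm2, the regulated subunit of ribonucleotide reductase (ENSMUSG00000020649.11, chr12:24708241-24714146, plus), had 71 counts and 1.19 TPM in replicate 2, against 26 counts and 0.53 TPM in replicate 1. It was 2.60-fold higher in replicate 2 (1.64 to 4.25). Rrm2b, the p53-inducible alternative subunit that serves non-dividing cells, stood higher, at 8.20 TPM in replicate 2 and 9.45 in replicate 1. The counts of Rrm2b, 653 in replicate 2 and 628 in replicate 1, gave a ratio of 0.992 (0.887 to 1.11). The large subunit shared by both enzymes, Rrm1, was chosen after its values were seen, and had 694 counts in replicate 2 and 519 in replicate 1.

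The helicase genes Mcm2 and Mcm5, although parts of the same ring, were not alike in level. Mcm2 (ENSMUSG00000002870.8, chr6:88883474-88898780, minus) had 186 counts and 2.21 TPM in replicate 2, against 192 counts and 2.19 TPM in replicate 1. Mcm5 (ENSMUSG00000005410.6, chr8:75109569-75128439, plus) had 56 counts and 0.66 TPM in replicate 2, against 32 counts and 0.53 TPM in replicate 1. Mcm2 was thus above Mcm5 in both libraries on the TPM scale, with means of 2.20 ± 0.0141 and 0.595 ± 0.0919 TPM (SD, n = 2). The ratio of Mcm2 was 0.924 (0.751 to 1.14), and its sign turned positive by TPM (log2 ratio 0.01) and under spike-in scaling (0.28). The ratio of Mcm5 was 1.67 (1.06 to 2.66), and it passed 2-fold only under spike-in scaling. The tables disagreed on the transcripts of Mcm5: Mcm5-205 held 50% of the gene's TPM in replicate 2 and 57.7% in replicate 1 by alignment, but Mcm5-201 held most reads-based counts, 40.44 in replicate 2 and 22.03 in replicate 1.

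Pcna, the sliding clamp of replication and of DNA repair, differed little between the libraries (ENSMUSG00000027342.14, chr2:132249162-132253314, minus). It had 365 counts and 8.10 TPM in replicate 2, against 324.9 counts and 7.63 TPM in replicate 1, a ratio of 1.07 (0.920 to 1.25). It stood at the 78.9th percentile of protein-coding genes in replicate 2 and the 78.1st in replicate 1, far above Mki67, at the 53.4th in replicate 2 and the 44.5th in replicate 1. Reads shared with processed copies are divided by estimation. The processed pseudogene Pcna-ps2 (chr19:9283380-9284160) was given 17.0 counts in replicate 2 and 27.1 in replicate 1, and Pcna-ps1 was listed at 0 in both. The deposited posterior SD of the Pcna count was 4.31 counts in replicate 2 and 5.04 in replicate 1, small beside the count itself.

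The TPM of Pcna depended on the table. The sum over its transcripts was 17.5 TPM in replicate 2 and 16.8 in replicate 1 in the reads-based table, although the counts there, 356.8 in replicate 2 and 303.4 in replicate 1, were close to those by alignment. The coding transcript Pcna-201 held 96.9% of the gene's TPM in replicate 2 and 96.7% in replicate 1 by alignment, against 52.0% in replicate 2 and 51.5% in replicate 1 by reads. Most of the remainder was the short noncoding Pcna-203, at 8.02 TPM in replicate 2 and 7.84 in replicate 1 by reads and 0 by alignment. Pcna-201 itself was close in all 4 columns, from 7.38 to 9.11 TPM.

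Cdkn1a, the p21 inhibitor, was the highest of the 10 genes by mean TPM and differed in the opposite direction to the mitotic genes (ENSMUSG00000023067.14, chr17:29090976-29100727, plus). It had 623 counts and 10.7 TPM in replicate 2, against 1125 counts and 20.3 TPM in replicate 1. It was 1.89-fold lower in replicate 2 (1.72 to 2.09), under the 2-fold mark, and lower there in all 8 settings, with log2 ratios from -0.96 to -0.53. Among protein-coding genes it stood at the 82.7th percentile in replicate 2 and the 90.2nd in replicate 1. Its mean was 15.5 ± 6.82 TPM (SD, n = 2).

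The upstream start of Cdkn1a, next to the p53 element printed above, gave no counts in either table. Cdkn1a-202 and Cdkn1a-204 begin there, 32 and 29 bases after the element, and both were at 0 in both libraries. All counts fell on transcripts that begin further downstream: Cdkn1a-201 begins 2822 bases after the element, Cdkn1a-205 2834 bases and Cdkn1a-203 6953 bases. Cdkn1a-201 held 97.0% of the gene's TPM in replicate 2 and 100% in replicate 1 by alignment, but 42.9% in replicate 2 and 20.8% in replicate 1 by reads. There Cdkn1a-205 stood at 7.63 TPM in replicate 2 and 21.7 in replicate 1, while Cdkn1a-201 stood at 6.05 TPM in replicate 2 and 5.77 in replicate 1. These transcripts start within a few bases of each other, and the reads-based table alone placed the difference between libraries on Cdkn1a-205.

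**Figure D4:**
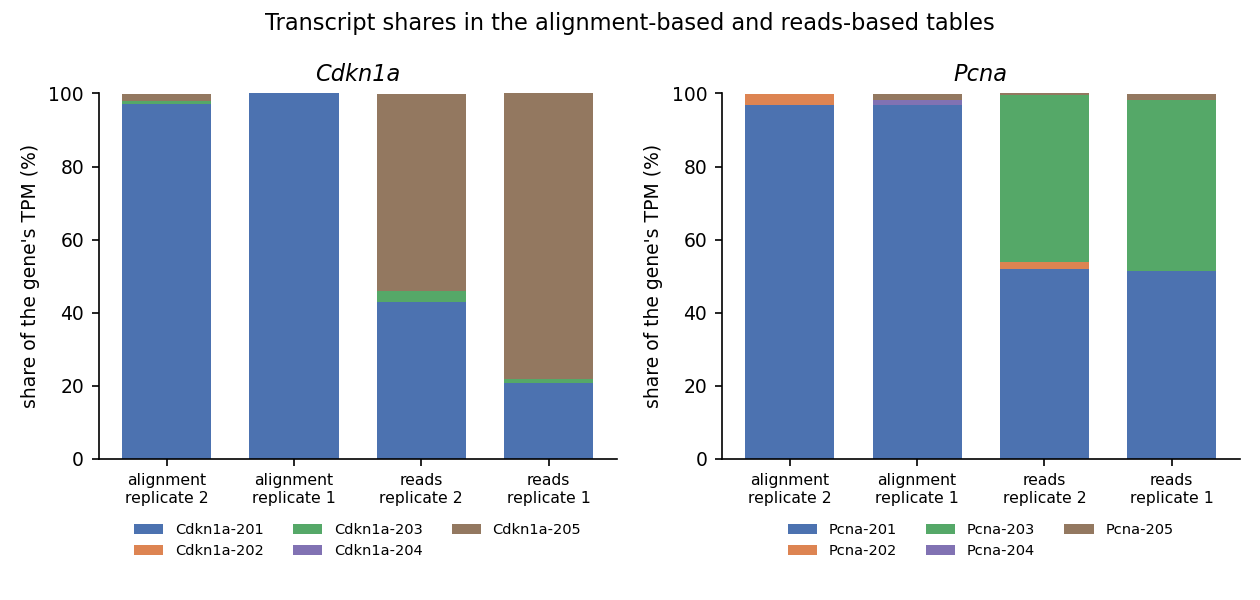
Share of the TPM of Cdkn1a and of Pcna held by each annotated transcript, in percent, with bars for replicate 2 and replicate 1 in the alignment-based and then the reads-based table. Cdkn1a-201 fills 97.0% (replicate 2) and 100% (replicate 1) of the alignment-based bars but 42.9% (replicate 2) and 20.8% (replicate 1) of the reads-based ones, and Pcna-203 is present only in the reads-based bars.

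The other genes of the same pathways were read from 7 lists, chosen with earlier results of these data known. On the mitosis list, 26 of 35 genes had a mean count of at least 10, of which 10 were over 2-fold higher in replicate 2, none over 2-fold lower and 16 within 2-fold. The share of all genes over 2-fold higher was 4.63%, and 9.7% at 10 to 100 counts. Cenpf and Espl1, named after their values were seen, were barely past 2-fold, at log2 ratios of 1.006 and 1.017. Cenpf was at 0.97 in the reads-based table and 1.09 by TPM. Espl1 was at 1.25 in the reads-based table and -0.19 by TPM. The median log2 ratio of the 26 was 0.69, against -0.002 for all genes, and was lower in the reads-based table (0.47) and at a mean count of 30 or more (0.37). The largest were Bub1b, a spindle checkpoint kinase gene, with 28 counts in replicate 2 and 4 in replicate 1, and Ncapg, a condensin subunit gene, with 17 counts in replicate 2 and 3 in replicate 1. By TPM the log2 ratio was 3.22 for Bub1b but 0.54, under 2-fold, for Ncapg. In the reads-based table that of Ncapg was 1.82. The 3 highest by TPM were all within 2-fold. Smc4, a condensin ATPase, had 3.53 TPM in replicate 2 and 3.15 in replicate 1. Aurka, a spindle pole kinase, had 1.62 TPM in replicate 2 and 2.49 in replicate 1, and Cks1b, a CDK-binding subunit, had 1.32 TPM in replicate 2 and 1.64 in replicate 1. By counts, 23 of the 26 were higher in replicate 2 by any amount, where 49.7% of all genes were, and 3 were lower: Aurka, Cks1b and, named after its values were seen, Tpx2. Under spike-in scaling Aurka and Tpx2 turned positive, at log2 ratios of 0.05 and 0.001.

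By their medians, the replication lists gave smaller differences than the mitosis list. Single genes could still differ widely, as Uhrf1 did. Of 17 licensing genes at a mean count of 10 or more, out of 21, 1 was over 2-fold higher in replicate 2, none was over 2-fold lower, and the median log2 ratio was 0.18. That gene was Gmnn, encoding geminin, the inhibitor that prevents re-licensing, with 51 counts in replicate 2 and 18 in replicate 1. The origin recognition genes Orc3 and Orc4 were the highest, Orc3 at 14.2 TPM in replicate 2 and 15.4 in replicate 1, and Orc4 at 11.8 TPM in replicate 2 and 9.03 in replicate 1. Of 26 genes of the replication fork and nucleotide supply, out of 29, 3 were over 2-fold higher in replicate 2, none over 2-fold lower, and the median was 0.17. Uhrf1, which carries DNA methylation through replication, had 87 counts in replicate 2 and 15 in replicate 1, and its ratio was 5.53 (3.18 to 10.3). Pole, the leading-strand polymerase gene, had 151 counts in replicate 2 and 64 in replicate 1, and Tk1, thymidine kinase, named after its values were seen, 49 counts in replicate 2 and 23 in replicate 1. Tk1 was barely past 2-fold, at a log2 ratio of 1.007, and under 2-fold in the reads-based table, at 0.71. Beside these counts, 4.63% of all genes were over 2-fold higher in replicate 2. The share was 9.7% at 10 to 100 counts, the range of Gmnn, Uhrf1 and Tk1, and 2% at 100 to 1000, that of Pole. Rpa1, a single-strand binding subunit with repair duties in non-dividing cells, stood at 22.9 TPM in replicate 2 and 24.9 in replicate 1.

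Regulators of the cycle were mostly within 2-fold. None of the 8 G1 cyclins and kinases was past 2-fold, with a median log2 ratio of 0.33. Cdk4 stood at 15.3 TPM in replicate 2 and 14.1 in replicate 1, and Ccnd3, cyclin D3, at 12.3 TPM in replicate 2 and 11.4 in replicate 1. Of 19 genes of the Rb, E2F and DREAM group, 2 were over 2-fold higher in replicate 2, none over 2-fold lower, and the median was 0.15. These were E2f8, a repressor of the E2F family, with 21 counts in replicate 2 and 3 in replicate 1, and Foxm1, the activator of mitotic genes, with 37 counts in replicate 2 and 14 in replicate 1. Among all genes, 4.63% were over 2-fold higher, and 9.7% at 10 to 100 counts, where both of these lie. E2f6, a repressor, was the highest of them, at 45.5 TPM in replicate 2 and 38.6 in replicate 1.

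Among the other CDK inhibitors, only Cdkn1c, encoding p57, was past 2-fold at a mean count of 10 or more, and like Cdkn1a it was lower in replicate 2. It had 799 counts and 16.9 TPM in replicate 2, against 1671 counts and 40.1 TPM in replicate 1, and was 2.19-fold lower in replicate 2 (2.01 to 2.39). Under spike-in scaling its log2 ratio was -0.74, within 2-fold. Cdkn1b, encoding p27, did not share this: it had 1330 counts in replicate 2 and 1265 in replicate 1, and its ratio was 1.00 (0.927 to 1.08). The 4 inhibitors at a mean count of 10 or more, out of 7, had a median log2 ratio of -0.19, or 0.20 under spike-in scaling, against 0.39 for all genes. The share of all genes over 2-fold lower in replicate 2 was 3.09%.

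The p53 list gave no common direction with Cdkn1a. Of its 18 genes, 9 were higher and 9 lower in replicate 2 by any amount, 1 was over 2-fold higher, none was over 2-fold lower, and the median log2 ratio was -0.03, or 0.36 under spike-in scaling. The share of all genes over 2-fold higher was 4.63%. The gene past 2-fold was Btg2, an antiproliferative immediate early gene, with 1834 counts in replicate 2 and 659 in replicate 1, and its ratio was 2.65 (2.43 to 2.90). Gadd45a, a stress response gene, was the most different in the direction of Cdkn1a, with 507 counts in replicate 2 and 716 in replicate 1. Ccng1, cyclin G1, was the highest of the list, at 259 TPM in replicate 2 and 319 in replicate 1.

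**Figure D5:**
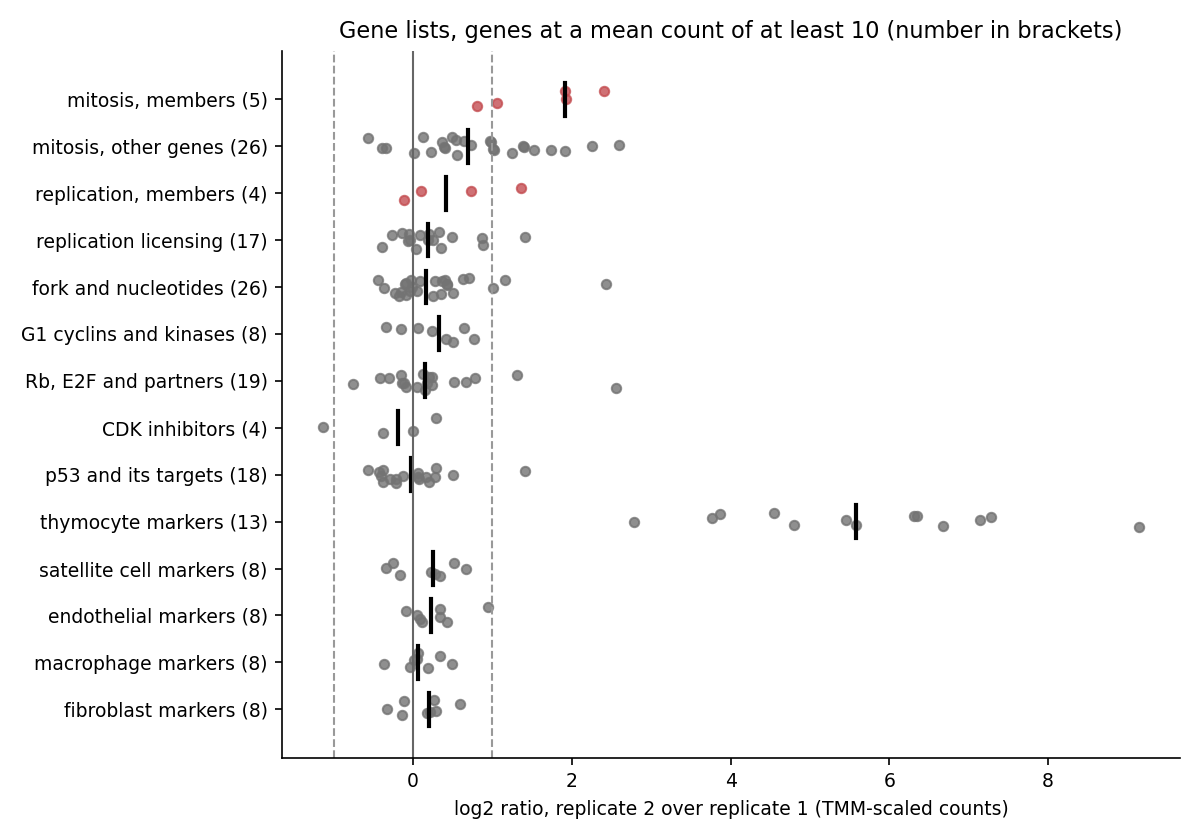
Log2 ratio of replicate 2 over replicate 1 for every gene at a mean count of 10 or more in each list drawn. Red dots are the 9 mitotic and replication genes described first, and grey dots are other genes. Black bars are at the list medians and dashed lines at 2-fold. The medians of the mitotic lists are 1.92 for the members and 0.69 for the other genes. Those of the replication lists are 0.41 for the members, 0.18 for licensing and 0.17 for fork and nucleotides. The median of the thymocyte markers is 5.58. Lists not drawn include the slow fibre genes (median 9.8), the fat cell genes (-3.16) and the erythroid precursor markers (-2.5).

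Markers of thymocytes, the developing T cells of the thymus, were also higher in replicate 2, as were the slow fibre genes. Of 15 thymocyte markers, 13 had a mean count of at least 10. All 13 were over 2-fold higher in replicate 2, where 4.63% of all genes were. The median log2 ratio of the 13 was 5.58. Summed over the 15, they had 1093.9 counts and 15.7 TPM in replicate 2, against 23.0 counts and 0.54 TPM in replicate 1. Rag1, which cuts DNA to assemble receptor genes in lymphocyte precursors, had 289 counts in replicate 2, against 0 in replicate 1. Lck, a kinase of T cell receptor signalling, had 79 counts in replicate 2 and 0 in replicate 1, and Cd8a, a co-receptor of thymocytes and T cells, had 123 in replicate 2 and 1 in replicate 1. The transcription factor gene Tcf7 had 175 counts in replicate 2 and 11 in replicate 1. In replicate 1, 9 of the 15 were at 0, among them Rag2, Dntt, Ptcra and Cd3d, named after their values were seen, and in replicate 2 only Ptcra, the pre-T cell receptor chain, was at 0. In the reads-based table fewer were at 0 in replicate 1, with 9.1 counts for Cd3d, 4.0 for Rag2, 1.9 for Ptcra and 16.0 for Cd8a there. The list summed to 1269.2 reads-based counts in replicate 2 and 62.1 in replicate 1, with a median log2 ratio of 4.31. Tcf7 is also made by other cells. The part of these cells in the differences of Mki67, Top2a, Ccna2, Cdk1 and Rrm2 was not tested, and the design cannot tell it apart from other differences between the libraries.

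Markers of B cells and neutrophil precursors were low, and those of erythroid precursors were mixed. The 8 B cell markers summed to 0.89 TPM in replicate 2 and 0.64 in replicate 1, and 1 of them had a mean count of at least 10, within 2-fold. Cd79b, a B cell receptor chain, had 6 counts in replicate 2 and 3 in replicate 1, and Vpreb1, named after its values were seen, was at 0 in both. The 9 neutrophil precursor markers summed to 0 counts in replicate 2 and 9 counts in replicate 1. Of 10 erythroid precursor markers, 3 had a mean count of at least 10, of which 2 were over 2-fold lower in replicate 2 and 1 was within 2-fold. Most of their summed TPM, 63.7 in replicate 2 and 46.5 in replicate 1, was Tfrc, the transferrin receptor, which muscle also makes, at 61.4 TPM in replicate 2 and 34.0 in replicate 1. Alas2, the first enzyme of heme synthesis in red cells, was lower in replicate 2, with 104 counts and 2.00 TPM in replicate 2, against 564 counts and 11.97 TPM in replicate 1. Klf1, a transcription factor gene of red cell precursors, named after its values were seen, had 0 counts in replicate 2 and 2 in replicate 1. Among all genes, 3.09% were over 2-fold lower in replicate 2.

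Unlike the slow fibre and fat cell genes above, the lists for satellite cells, endothelium, macrophages and fibroblasts differed little. None of the 8 satellite cell markers was past 2-fold, with a median log2 ratio of 0.25: Myf5, a determination factor of muscle precursors, had 65 counts in replicate 2 and 39 in replicate 1, and Itga7, which fibres also make, had 18.8 TPM in replicate 2 and 24.7 in replicate 1. None of the 8 endothelial markers was past 2-fold, with a median of 0.23, although Kdr, the VEGF receptor, had 1167 counts in replicate 2 and 577 in replicate 1, and its ratio was 1.93 (1.74 to 2.13). None of the 8 macrophage and 8 fibroblast markers was past 2-fold either, with medians of 0.06 and 0.20. Lyz2, macrophage lysozyme, stood at 12.5 TPM in replicate 2 and 12.1 in replicate 1, and Col1a1, a collagen of fibroblasts, at 237 TPM in replicate 2 and 212 in replicate 1. Spike-in scaling moved the list medians to 0.64 for satellite cells, 0.62 for endothelium, 0.45 for macrophages and 0.59 for fibroblasts. The median of all genes was then 0.39.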

How the data were processed

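Total RNA-seq of 2 libraries of 1 group was used, grouped and numbered by the labels. Each library has 3 tables that the authors deposited: genes and transcripts quantified from transcriptome alignments, and transcripts quantified from the reads without them. Per the file headers and deposited descriptions, the expected counts are not normalised, TPM and FPKM are scaled over all rows, spike-ins among them, and the posterior SD, posterior mean and interval bounds are scores of the estimate, and the isoform share is a percent of the gene. The build was mm10 with GENCODE M21. The quantification program is not given in the sources used here.

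From these, whole-number roundings of the expected counts were used for scaling factors (TMM, edgeR 4.0.16, and size factors, DESeq2 1.42.0, in R 4.3.3). The log2 ratios, the filter on mean count and the counting intervals also used the rounded counts, while fold ratios used the unrounded counts. Log2 ratios of replicate 2 over replicate 1 used a prior count of 0.5. Genes at a mean count of 10 or more entered ratio counts, called means past 2-fold, and detection means a TPM of at least 1 in both libraries. Levels between genes are compared as TPM only. Counting intervals are exact (Clopper-Pearson, 95%) and, like the depth of 40656175 (replicate 2) and 37735687 (replicate 1) counts, say nothing of spread between animals, and the reads carry no molecular identifiers, so duplicates are counted. Posterior and percent columns were used for Pcna and as an alternative, and transcript shares were recomputed from TPM. The steps were tested on simulated data in Python 3.11.15 (libraries scipy 1.17.1, pandas 2.3.3, numpy 2.4.6; plots by matplotlib 3.10.9).

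The members and lists were chosen with earlier results of these data known. Named genes are the 10 members, in each list the 3 highest by mean TPM and the 2 largest absolute log2 ratios among genes at a mean count of 10 or more, and pseudogenes named after a member; others are marked in the text. Not all of these are named, and the remainder are counted in their list. The values of 1 list gene are not reported here. The p53 element was searched after the promoter windows had been read. Gene coordinates are from GENCODE M21, and promoters from RefSeq (GRCm38.p6).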

Additional observations from a re-analysis of the deposited data

How the results depend on the processing

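The count of detected members was 3, and became 5 at a TPM of at least 0.5; with 1 library left out it ranged from 3 (replicate 1 alone) to 6 (replicate 2 alone). It was 3 at a TPM of at least 2, by FPKM, in the reads-based table and without mitochondrial, 7SL, 7SK and spike-in rows. The count of members over 2-fold higher in replicate 2 was 5, and became 3 at a mean count of 30 or more, which leaves out Ccna2 and Cdk1. It ranged from 4 to 7 under the other alternatives. The 7 was under spike-in scaling, which raised the median log2 ratio of all genes from -0.002 to 0.39. Beside the count of 5, the share of all genes over 2-fold higher was 4.63%, and that share was not taken under the alternatives. The members' median log2 ratio stayed between 0.73 and 1.30 in all 9 alternatives. Of the 70 member ratios recomputed, 66 stayed within the counting interval and 4, all under spike-in scaling, left it. TPM without mitochondrial, 7SL, 7SK and spike-in rows gave a mean of 29.6 for Cdkn1a and 15.2 for Pcna. No ratio could be computed with a library left out. No paired analysis was possible because the series holds 1 group. Depth limits Ccnb1 and Cdk1, whose counting intervals include no difference.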
